A study of Mus musculus with 2 samples.

Results

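The Cyp2c cytochrome family was followed in spatial transcriptomics (ST) data from mouse liver. Its members here were 10 genes named by symbol (Cyp2c29, Cyp2c37, Cyp2c38, Cyp2c40, Cyp2c50, Cyp2c54, Cyp2c67, Cyp2c68, Cyp2c69 and Cyp2c70), out of 15 features whose symbol begins with Cyp2c and 32285 features in all. The family was singled out because its level differed between the sections and along the lobule, so its levels are given as a description, without a test. Cytochromes P450 are heme enzymes of the endoplasmic reticulum that insert oxygen into fatty acids, steroids, bile acids and drugs, with electrons supplied by the reductase Por. The Cyp2c enzymes are made mainly in hepatocytes. Several of them act as epoxygenases, which turn arachidonic and linoleic acid into epoxides, and Cyp2c70 makes the muricholic acids of mouse bile. Hepatocytes near the central vein, called pericentral, are known for a high P450 content, whereas periportal cells near the portal vein are known for urea synthesis and gluconeogenesis.

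The NCD group was a male C57BL/6J mouse on normal chow, and the HFD group a male C57BL/6J mouse on a high-fat diet (60% fat). Both mice were 5 weeks old when obtained and had 1 week of acclimation. They had been on their diet for 14 weeks when an 8-week period began with a daily oral dose of distilled water, in place of a drug. The livers were perfused, frozen and cut at 10 µm for 10x Visium, in which barcoded spots on a slide capture RNA from a small area that can hold several cells, and each captured molecule is counted once by its unique molecular identifier (UMI). With 1 section from 1 mouse in each group, diet, animal, section and slide cannot be told apart, so no test was run, and all 95% intervals below cover counting error only. The labels also name a hematopoietic stem cell line and immune cells, which goes against the data: 5 hepatocyte markers together (Alb, Apoa1, Cyp2e1, Mup3 and Pck1) reached 82801 UMIs per 1000000 UMIs (CPM) in the NCD section and 75919 CPM in the HFD section, against 8.16 and 5.77 CPM for 3 T cell markers.

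The NCD section was the shallower of the pair, with a median of 4187.5 UMIs over 3692 spots on tissue, against 18549 UMIs over 3594 spots in the HFD section. Spots off tissue also held RNA, 19.1% of all UMIs on the NCD slide and 2.93% on the HFD slide. The median spot off tissue held 3383 UMIs on the NCD slide and 1175.5 UMIs on the HFD slide. The part of such RNA in the levels and lobule profiles on tissue was not tested. The summed members stood at 2804 CPM off tissue and 3058 CPM on tissue in the NCD section, and at 806 and 1009 CPM in the HFD section. In a spot, fewer hepatocytes and less RNA per hepatocyte cannot be told apart.

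The 10 members lie in 1 cluster on chromosome 19, chr19:39269405-40187333 of GRCm38, which spans 917929 bases. Along the chromosome the order is Cyp2c29, Cyp2c38, Cyp2c67, Cyp2c68, Cyp2c40, Cyp2c69, Cyp2c37, Cyp2c54, Cyp2c50 and Cyp2c70. Of these genes, 3 (Cyp2c29, Cyp2c37 and Cyp2c50) are on the plus strand and 7 on the minus strand. Cyp2c54 ends 15860 bases before Cyp2c50 begins, the smallest gap to the next coding gene among the members. RefSeq promoters, 250 bases before to 50 bases after the start site on GRCm38.p6, were matched for 9 members, all but Cyp2c54. The promoters of 6 members with contrasting levels are shown, each read 5′ to 3′ on the strand of the gene. Cyp2c29 (chr19:39286835-39287134, plus strand) and Cyp2c38 (chr19:39463026-39463325, minus strand) are neighbours that differed in opposite directions between the sections. Cyp2c37 (chr19:39992174-39992473, plus strand) and Cyp2c50 (chr19:40089429-40089728, plus strand) were among the members with the highest levels in the NCD section. Cyp2c68 (chr19:39741052-39741351, minus strand) and Cyp2c70 (chr19:40187237-40187536, minus strand) had the flattest profiles along the lobule. Capitals mark matches on either strand to the letters CAAAGTCCA, a motif of the hepatocyte nuclear receptor HNF4. They also mark TGTTTAC, a motif of the forkhead (FOX) factors of the liver. The nuclear receptor half-site, written here as AGGTCA, is marked in the same way. The last of the marked motifs is the TATA box of many promoters, with the letters TATAAA.
Cyp2c29: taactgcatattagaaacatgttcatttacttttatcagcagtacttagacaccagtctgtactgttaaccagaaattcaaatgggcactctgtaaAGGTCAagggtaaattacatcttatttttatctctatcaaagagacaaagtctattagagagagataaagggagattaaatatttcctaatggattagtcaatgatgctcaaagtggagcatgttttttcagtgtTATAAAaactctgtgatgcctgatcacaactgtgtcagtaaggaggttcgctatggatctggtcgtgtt
Cyp2c38: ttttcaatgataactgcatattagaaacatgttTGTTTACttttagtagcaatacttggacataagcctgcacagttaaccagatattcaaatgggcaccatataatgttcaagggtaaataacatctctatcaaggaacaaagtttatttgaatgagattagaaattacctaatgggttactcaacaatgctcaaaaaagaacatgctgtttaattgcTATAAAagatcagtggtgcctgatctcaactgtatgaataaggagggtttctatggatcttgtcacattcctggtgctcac
Cyp2c37: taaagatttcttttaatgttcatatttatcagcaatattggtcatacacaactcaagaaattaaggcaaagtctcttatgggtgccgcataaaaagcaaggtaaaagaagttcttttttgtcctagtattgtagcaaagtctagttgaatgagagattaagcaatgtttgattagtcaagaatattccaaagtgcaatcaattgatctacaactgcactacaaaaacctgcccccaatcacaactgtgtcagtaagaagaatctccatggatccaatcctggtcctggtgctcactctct
Cyp2c50: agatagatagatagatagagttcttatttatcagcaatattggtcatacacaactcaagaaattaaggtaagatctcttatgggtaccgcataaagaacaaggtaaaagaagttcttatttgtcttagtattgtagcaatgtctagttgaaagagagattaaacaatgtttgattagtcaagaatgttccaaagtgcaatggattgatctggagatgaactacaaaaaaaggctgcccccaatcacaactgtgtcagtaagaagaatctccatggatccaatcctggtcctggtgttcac
Cyp2c68: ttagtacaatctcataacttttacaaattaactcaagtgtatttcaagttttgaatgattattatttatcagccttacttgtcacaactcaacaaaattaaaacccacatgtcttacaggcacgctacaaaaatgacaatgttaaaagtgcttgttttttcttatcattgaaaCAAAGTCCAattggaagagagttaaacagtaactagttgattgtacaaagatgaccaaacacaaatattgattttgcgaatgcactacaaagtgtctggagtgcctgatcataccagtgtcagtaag
Cyp2c70: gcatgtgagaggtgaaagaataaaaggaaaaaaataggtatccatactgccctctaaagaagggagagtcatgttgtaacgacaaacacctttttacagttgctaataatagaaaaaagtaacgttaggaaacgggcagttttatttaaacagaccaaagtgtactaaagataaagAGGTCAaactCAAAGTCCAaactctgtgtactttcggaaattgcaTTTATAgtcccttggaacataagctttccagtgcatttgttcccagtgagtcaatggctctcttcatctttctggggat

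The promoters of Cyp2c37 and Cyp2c50 were identical at 88% of 300 bases and those of Cyp2c29 and Cyp2c38 at 76%. Cyp2c68 and Cyp2c69 had the most similar pair of promoters, identical at 92.3%, while Cyp2c70 was identical to each other member at 53% to 55.3%. The HNF4 letters were found in 5 of the 9 promoters (Cyp2c40, Cyp2c67, Cyp2c68, Cyp2c69 and Cyp2c70), against 0.475% of all 32851 RefSeq mouse promoters of the same length. The match starts 77 bases before the start site in Cyp2c68 and 64 bases before it in Cyp2c70. In Cyp2c70 it follows the AGGTCA letters, which start 74 bases before the start site. TATAAA was found in 6 of the 9 promoters and in 13.6% of all promoters. Its match starts after the start site in Cyp2c40 (by 40 bases) and Cyp2c69 (by 10 bases). In Cyp2c29, Cyp2c38, Cyp2c67 and Cyp2c70 it starts 19 to 40 bases before the start site. AGGTCA was found in 2 member promoters (Cyp2c29 and Cyp2c70) and in 16.3% of all promoters. TGTTTAC was found in 1 (Cyp2c38) and in 3.65% of all promoters. The letters TTCNNNGAA, a motif of STAT factors, were found in 0 member promoters and in 8.3% of all promoters. These letters were chosen after the sequences had been seen, the promoters resemble each other, and a match is a description of the sequence and not a binding site.

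Because Visium reads come from the 3′ end of transcripts, the last 500 bases of the members were compared. The ends of Cyp2c40 and Cyp2c68 were identical at 98.6% of the bases, those of Cyp2c67 and Cyp2c68 at 97.8%, and those of Cyp2c37 and Cyp2c50 at 95.6%. Of all 90-base windows in the end of Cyp2c40, 49.9% also occur in another member, and 28.0% do in Cyp2c68, 23.8% in Cyp2c69 and 23.1% in Cyp2c67. The share was 8.27% in Cyp2c54, 5.35% in Cyp2c37 and 3.65% in Cyp2c50, and 0% in Cyp2c29, Cyp2c38 and Cyp2c70. Reads from shared stretches cannot be given to 1 gene, so the split of counts among Cyp2c40, Cyp2c67, Cyp2c68 and Cyp2c69 is uncertain.

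Compared with the NCD section, the HFD section had less Cyp2c RNA. The summed members stood at 3058 CPM (interval 3038 to 3078) in the NCD section and 1009 CPM (1001 to 1016) in the HFD section, a level 3.03-fold lower, or −1.60 on the log2 scale. Without Cyp2c54 the log2 ratio of the sum was −1.46. Of the 10 members, 9 were lower in the HFD section and 1, Cyp2c38, was higher, each with an interval that left out 0. The share of all genes with such an interval was not counted. At this depth small ratios also left out 0, such as that of Cyb5a, cytochrome b5 (−0.11, interval −0.12 to −0.09). The members that passed a minimum of 200 UMIs over both sections were 9 of 10, all but Cyp2c69, and 5 of these were at least 2-fold lower and 0 at least 2-fold higher. Of all 10665 genes above this minimum, 1.84% were at least 2-fold lower and 9.3% at least 2-fold higher. The median log2 ratio was −1.65 over the 9 members and 0.23 over all these genes. Since the members were chosen on this contrast, the counts describe the choice. Short of a fold of 2 lay Cyp2c70 (−0.89), Cyp2c38 (0.70), Cyp2c68 (−0.61) and Cyp2c67 (−0.60), and the first past it was Cyp2c29 (−1.65). Counting Cyp2c69, 6 of the 10 members were past a fold of 2. As a mean of CPM per spot 8 were, since Cyp2c70 (−1.07) then passed it as lower and Cyp2c38 (1.09) as higher. Against a total of 6 hepatocyte genes (Ttr, Apoa2, Apoc3, Fgb, Rbp4 and Trf), which stood 0.35 higher in the HFD section on the log2 scale, every ratio was lower by that amount. On this total 7 members were past the fold, with Cyp2c70 at −1.23, and Cyp2c38 was still higher, at 0.36. The share of all genes past the fold was not recounted with either change. The 5 hepatocyte markers named above had a log2 ratio of −0.13 (3 genes higher, 2 lower), so the direction of this shift depends on the hepatocyte genes chosen. Other RNA moved with the sections as well: 4 hemoglobin genes stood at 6676 CPM in the NCD section and 1246 CPM in the HFD section, and 4 stellate cell markers at 45.3 and 133 CPM, and the part of either in the levels of the members was not tested.

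**Figure D1:**
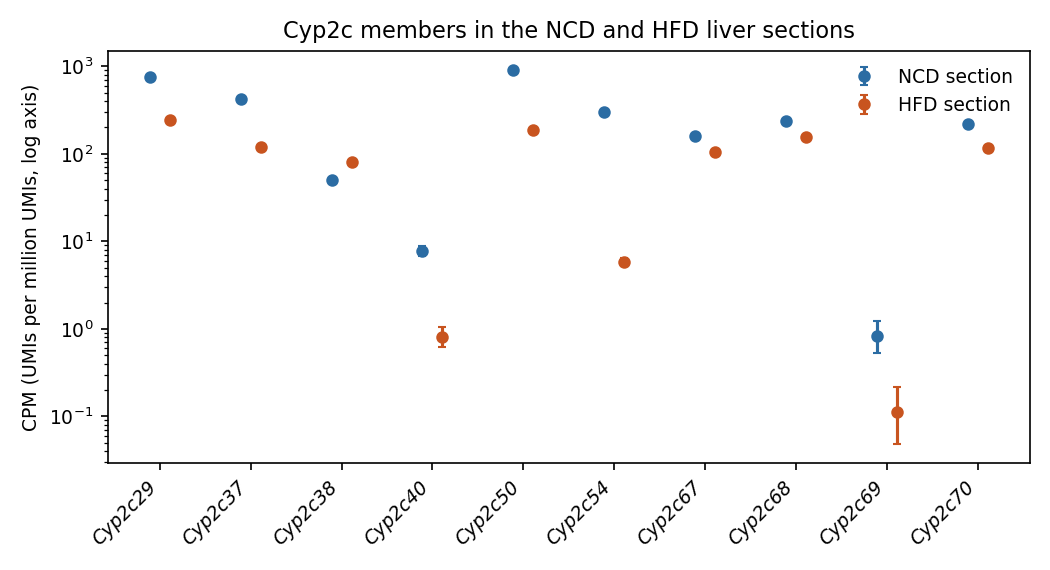
Level of each Cyp2c member in CPM, on a log axis, in the NCD section (blue) and the HFD section (orange), with exact 95% intervals for counting error. Cyp2c38 is the only member with the higher point in the HFD section, and Cyp2c54 has the widest gap, 300 against 5.80 CPM.

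Among the epoxygenases, Cyp2c50 had the highest level in the NCD section, 907 CPM, and stood at 185 CPM in the HFD section, a log2 ratio of −2.29. Cyp2c29, a gene known to be induced by phenobarbital through the receptor CAR, stood at 758 CPM in the NCD section and 241 CPM in the HFD section (log2 ratio −1.65), which made it the highest member there. Cyp2c37 stood at 423 and 118 CPM (log2 ratio −1.84). Division by transcript length is not needed to set these levels against each other, since each molecule is counted once at its 3′ end. Shared ends limit such comparisons, since the part of windows found in another member ran from 0% in Cyp2c29 to 49.9% in Cyp2c40. Cyp2c54, an epoxygenase of arachidonic and linoleic acid, showed the widest difference of the family. It had 8701 UMIs, or 300 CPM (293 to 306), in the NCD section and 418 UMIs, or 5.80 CPM (5.25 to 6.38), in the HFD section. This was 51.7-fold lower (46.9 to 57.2), and 8 of the 10665 genes had a lower ratio. In the NCD section 2055 of 3692 spots held a Cyp2c54 UMI and in the deeper HFD section 366 of 3594 spots did, with at most 29 and 3 UMIs in a spot. Cyp2c38, also an epoxygenase of arachidonic acid, went the other way, from 50.1 CPM (47.5 to 52.7) in the NCD section to 81.5 CPM (79.5 to 83.7) in the HFD section, a log2 ratio of 0.70. Its 1454 and 5881 UMIs put it eighth and seventh in the order of levels.

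Cyp2c67 and Cyp2c68, whose transcripts have near-identical ends, had similar and smaller differences. Cyp2c67 stood at 158 CPM in the NCD section and 104 CPM in the HFD section (log2 ratio −0.60, interval −0.66 to −0.55). Cyp2c68 stood at 237 and 155 CPM (log2 ratio −0.61, interval −0.66 to −0.57). Cyp2c40 and Cyp2c69, both known as genes with higher levels in female liver, were the members with the lowest levels in these sections. Cyp2c40 had 224 UMIs (7.71 CPM) in the NCD section and 59 UMIs (0.818 CPM) in the HFD section (log2 ratio −3.24, interval −3.68 to −2.82). Cyp2c69 had 24 and 8 UMIs, or 0.827 and 0.111 CPM. The counts behind this last gene were few, and its ratio of 7.45 had an interval from 3.24 to 19.2. Cyp2c70, the bile acid hydroxylase, stood at 218 CPM in the NCD section and 118 CPM in the HFD section (log2 ratio −0.89, interval −0.93 to −0.84).

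The make-up of the family therefore differed between the sections. Of the members' UMIs, Cyp2c50 supplied 29.6% in the NCD and 18.3% in the HFD section, and Cyp2c54 supplied 9.80% and 0.575%. Cyp2c29 held nearly the same share, 24.8% (24.5 to 25.1) and 23.9% (23.6 to 24.2). The members with the smaller differences took larger shares in the HFD section. Cyp2c68 went from 7.74% to 15.3%, Cyp2c67 from 5.16% to 10.3%, Cyp2c70 from 7.12% to 11.7% and Cyp2c38 from 1.64% to 8.09%. By level, the order in the NCD section was Cyp2c50, Cyp2c29, Cyp2c37, Cyp2c54, Cyp2c68, Cyp2c70, Cyp2c67, Cyp2c38, Cyp2c40 and Cyp2c69. The HFD order was Cyp2c29, Cyp2c50, Cyp2c68, Cyp2c37, Cyp2c70, Cyp2c67, Cyp2c38, Cyp2c54, Cyp2c40 and Cyp2c69. Cyp2c37 and Cyp2c70 in the HFD section were the only neighbours in either order whose intervals overlapped (116 to 121 and 115 to 120 CPM). The intervals leave out the effect of reads from shared ends on these orders and shares.

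**Figure D2:**
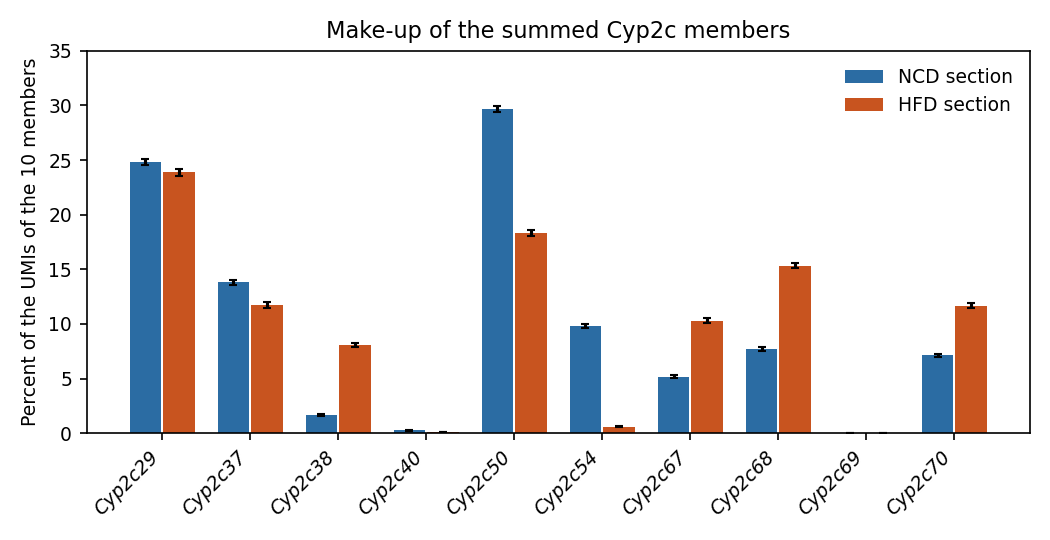
Percent of the UMIs of the 10 members that came from each member, in the NCD section (blue bars) and the HFD section (orange bars), with exact 95% intervals for counting error. The bars of Cyp2c29 are nearly level (24.8% and 23.9%), whereas Cyp2c54 drops from 9.80% to 0.575% and Cyp2c38 goes from 1.64% to 8.09%.

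Single spots showed the same direction at equal depth. When each spot was drawn down to 1000 UMIs, which left out 840 NCD and 4 HFD spots, a member UMI was found in 88.3% of NCD spots and 61.2% of HFD spots. The median NCD spot held 3 member UMIs and the median HFD spot 1, and the 90th percentile was 6 and 3. Without drawing down, a member UMI was found in 86.3% and 99.6% of spots, and the medians were 10 and 17 UMIs, with the higher values in the deeper HFD spots.

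The level of the family along the lobule was read from spots ranked by the share of UMIs from 8 pericentral genes among UMIs from these and 9 periportal genes, and cut into 5 bins of equal size within each section. Bin 1 is the periportal end and bin 5 the pericentral end. In the NCD section 2702 spots had the 20 zone gene UMIs needed for a rank and in the HFD section 3576 spots did. Spots within 2 percentage points of a cut made up 19.3% and 23.0%. In both sections the summed members climbed at every step from the periportal to the pericentral end. In the NCD section the summed CPM was 1144, 1933, 2936, 3883 and 5113 from bin 1 to bin 5, a log2 ratio of the ends of 2.16 (2.12 to 2.20). The HFD values were 552, 800, 972, 1185 and 1812 CPM, a log2 ratio of 1.72 (1.68 to 1.75). The bins did not differ in this ranking alone. The median UMIs per spot in the HFD section ran from 27741 in bin 1 to 14370 in bin 3, and 5 B cell markers in the NCD section ran from 10.7 CPM in bin 1 to 101 CPM in bin 5. The part of these differences in the profiles was not tested.

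Of 9 members with at least 200 UMIs in the NCD section (all but Cyp2c69), 8 were at least 2-fold higher at the pericentral end and 0 at the periportal end. Of 6971 genes in that section 3.11% were at least 2-fold pericentral and 1.46% at least 2-fold periportal. With 8 members above this minimum in the HFD section (all but Cyp2c40 and Cyp2c69), 6 were at least 2-fold pericentral and 0 were 2-fold periportal, against 2.31% and 1.66% of 10052 genes. Some of these calls ended when spots were drawn down to 1000 UMIs, where only 917 NCD and 367 HFD spots could be ranked. Of the NCD members called, Cyp2c29 (1.19) and Cyp2c37 (1.76) stayed past 2-fold, Cyp2c40 gave no value, and Cyp2c38, Cyp2c50, Cyp2c54, Cyp2c67 and Cyp2c68 lay between 0.53 and 0.86. Of the HFD members called, Cyp2c29, Cyp2c37 (1.88) and Cyp2c50 (1.28) stayed past it, Cyp2c54 gave no value, and Cyp2c38 (0.67) and Cyp2c67 (−0.83) did not. Ranking at 3000 UMIs per spot, a choice made after seeing the data, kept 2102 NCD and 3459 HFD spots. All these calls then stayed past 2-fold, the lowest being Cyp2c68 (1.13) in the NCD section and Cyp2c67 (1.22) in the HFD section. With 3 bins in place of 5, Cyp2c68 in the NCD section stood at 0.93. Pericentral position was part of what marked the family out, so these counts are a description. The median log2 ratio of the ends was 2.01 over the members and 0.17 over all genes in the NCD section, and 2.12 and 0.11 in the HFD section.

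The members differed in how steeply they climbed. Cyp2c40 had the highest log2 ratio of the ends in the NCD section among members with a UMI in every bin, 4.82, but with 4 UMIs in bin 1 its interval (3.44 to 6.72) was wide. It stood at 0.914, 1.57, 3.78, 6.63 and 25.9 CPM from bin 1 to bin 5 in the NCD section, where 66.8% of its level over the bins lay in bin 5. Glul, the glutamine synthetase of the cells next to the central vein and one of the ranking genes, had 68.3% there. Cyp2c40 had 4 UMIs in bin 1 and 36 in bin 5 of the HFD section, where 61.6% of its level lay in bin 5. Cyp2c37 stood at 89.1, 178, 311, 539 and 974 CPM in the NCD section and at 24.5, 53.7, 90.1, 143 and 336 CPM in the HFD section. Its log2 ratio of the ends, 3.45 (NCD) and 3.78 (HFD), had an NCD interval that overlapped that of Cyp2c40. Cyp2c29 stood at 189, 410, 706, 1024 and 1382 CPM in the NCD section and at 98.0, 186, 230, 294 and 482 CPM in the HFD section. Its ends differed by log2 ratios of 2.87 and 2.30. Cyp2c38 climbed from 10.1 to 90.9 CPM in the NCD section and from 21.8 to 168 CPM in the HFD section, so its higher level in the HFD section held in all 5 bins with nearly the same steepness (log2 ratios of 3.18 and 2.95).

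Cyp2c50 had its steeper profile in the HFD section. It stood at 348, 604, 937, 1152 and 1399 CPM in the NCD section, with a log2 ratio of the ends of 2.01 (1.93 to 2.09). The HFD values were 53.6, 126, 178, 250 and 399 CPM, a log2 ratio of 2.90 (2.80 to 2.99). Cyp2c54 stood at 121, 221, 314, 374 and 435 CPM in the NCD section and at 2.23, 4.69, 6.93, 8.99 and 8.55 CPM in the HFD section, with log2 ratios of 1.84 and 1.94. Its slope was thus similar at both levels, and the interval of the difference in slope was −0.42 to 0.61. Cyp2c69 had 14 UMIs in bin 5 and 0 in bin 1 of the NCD section, and the interval of its log2 ratio of the ends had a lower limit of 1.39. With 3 counts set for bin 1 and the 14 UMIs taken as exact, bin 5 was 3.70-fold higher.

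Cyp2c67, Cyp2c68 and Cyp2c70 had flatter or turned profiles in the HFD section. Cyp2c67 stood at 61.9, 102, 163, 200 and 245 CPM in the NCD section and at 61.7, 93.2, 115, 127 and 150 CPM in the HFD section (log2 ratios of 1.99 and 1.28). Cyp2c68 climbed from 144 to 322 CPM in the NCD section and from 142 to 183 CPM in the HFD section (1.17 and 0.37). Cyp2c70 alone among the members was higher at the periportal end of a section. It stood at 179, 207, 216, 238 and 236 CPM in the NCD section, so that the ends had a log2 ratio of 0.40 (0.27 to 0.53). The HFD values were 148, 139, 109, 89.6 and 82.3 CPM, and the log2 ratio was −0.85 (−0.95 to −0.74). The difference in slope was −1.24 (−1.41 to −1.08). The NCD slope of Cyp2c70 ranged from 0.27 to 0.44 over the other ways of ranking and scaling but was −0.69 when spots were drawn down to 1000 UMIs, where 917 spots kept enough zone gene UMIs and 76 Cyp2c70 UMIs lay in the end bins. At that depth Cyp2c67 in the HFD section also turned, to −0.83, from 28 UMIs in the end bins. Cyp2c68 was then not flatter in the HFD section, with 0.81 (NCD) and 0.88 (HFD).

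**Figure D3:**
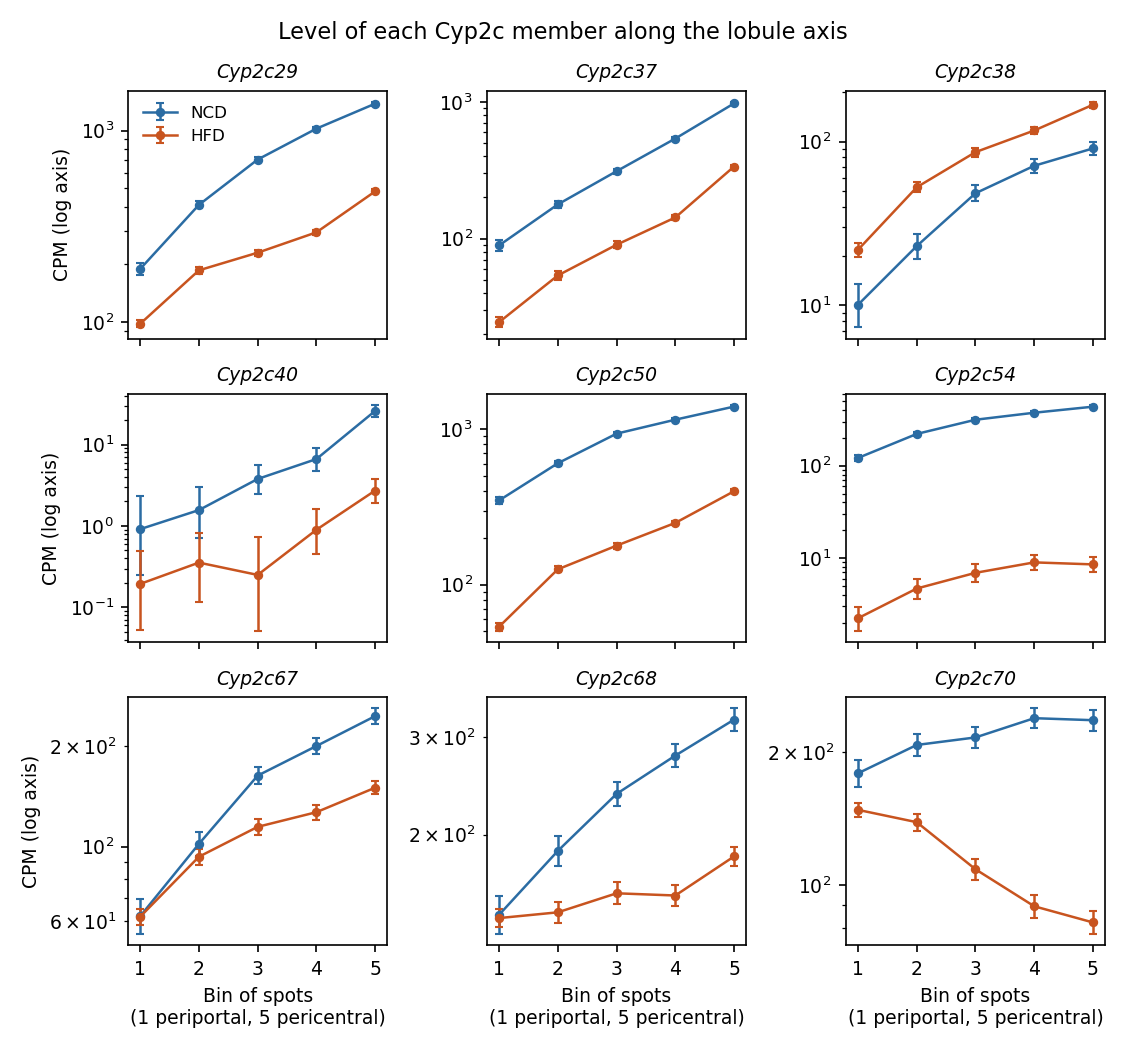
Level of 9 members in CPM, each panel on its own log axis, in bins of spots from the periportal end (1) to the pericentral end (5) of the NCD section (blue) and the HFD section (orange), with exact 95% intervals for counting error. The curves of Cyp2c38 lie with the HFD section on top, those of Cyp2c67 and Cyp2c68 meet in bin 1, and Cyp2c70 runs from 148 down to 82.3 CPM in the HFD section.

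The difference between the sections depended on the place in the lobule for some members. For the summed members the log2 ratio of HFD to NCD was −1.05 in bin 1, −1.71 in bin 4 and −1.50 in bin 5. With all UMIs as the total, Cyp2c67 and Cyp2c68 stood at nearly the same level in both sections at the periportal end, with log2 ratios of −0.01 (−0.20 to 0.19) and −0.02 (−0.14 to 0.11), and were lower in the HFD section at the pericentral end, with −0.71 and −0.82. Cyp2c70 went from −0.27 in bin 1 to −1.52 in bin 5. Cyp2c50 went the other way, from −2.70 in bin 1 to −1.81 in bin 5. Cyp2c54 was nearly constant, between −5.76 and −5.38, and Cyp2c37 lay between −1.92 and −1.53. Cyp2c29 was −0.95 in bin 1, −1.80 in bin 4 and −1.52 in bin 5. At the pericentral end, Cyp2c29, Cyp2c37 and Cyp2c70 had intervals that overlapped (−1.57 to −1.47, −1.59 to −1.48 and −1.64 to −1.40). Cyp2c38 was higher in the HFD section in each bin, by 0.72 to 1.19. The bins were cut within each section and may hold different parts of the lobule, since the ranking genes themselves differed between the sections. Cyp1a2 stood at 467 and 60.4 CPM, and Hsd17b13 at 273 and 848 CPM.

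**Figure D4:**
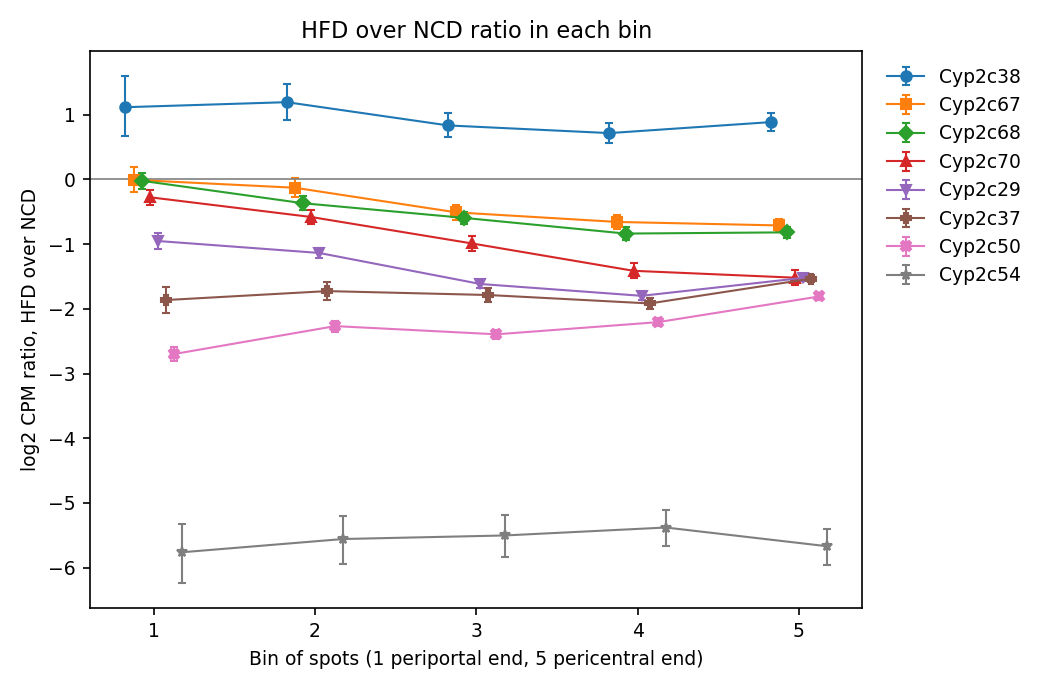
Log2 ratio of CPM, HFD over NCD, for 8 members in each bin of spots, with 95% intervals for counting error and a line at 0. Cyp2c67, Cyp2c68 and Cyp2c70 start between −0.27 and −0.01 at the periportal end and drop to −0.71, −0.82 and −1.52, Cyp2c54 stays below −5, and Cyp2c38 stays above 0.

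The profiles of the members over the 10 groups of spots (5 bins in 2 sections) were alike for most pairs. On log2 CPM the highest Pearson correlation was 0.98, between Cyp2c29 and Cyp2c37, and the lowest −0.47, between Cyp2c38 and Cyp2c70. The groups of a section share a library and its depth, so these values describe the profiles only. Outside the family and the zone genes, the 5 genes most like the summed members among 2552 genes were Psma3, Gpcpd1, Asgr1, Psmc1 and Pja1, each at 0.99. Among them Gpcpd1, a glycerophosphodiesterase, had the widest range. It had a log2 ratio of −1.51 between the sections, with log2 ratios of the ends of 2.39 and 1.65. Psma3 and Psmc1, both proteasome subunits, differed by −0.25 and −0.41 between the sections, and Asgr1, a subunit of the asialoglycoprotein receptor, by −0.28.

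The remaining Cyp2c genes were few in UMIs except Cyp2c23, an epoxygenase, which stood at 165 CPM in the NCD section and 88.6 CPM in the HFD section (log2 ratio −0.90). Cyp2c39 stood at 2.79 and 2.72 CPM and Cyp2c55 had 58 and 154 UMIs. Cyp2c65 and Cyp2c66 had 0 UMIs in both sections, which allows levels of up to 0.103 CPM in the NCD section and 0.0416 CPM in the HFD section. Against the other P450 families, the members made up 11.6% (NCD) and 7.27% (HFD) of all UMIs from Cyp genes. The log2 ratio was −0.93 for all Cyp genes together. It was −1.57 for Cyp3a, −1.64 for the Cyp4a fatty acid hydroxylases and −2.94 for Cyp1a. The Cyp2d and Cyp2e families both stood at −0.69. Cyp2a (0.15), Cyp2j (0.26) and Cyp2f (0.29) were nearly level, and Cyp2b stood apart, at 7.96 and 188 CPM (4.56).

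The share of all genes past a fold of 2 between the sections, 1.84% lower and 9.3% higher, is the background for the counts of the lists below, each of 6 to 8 genes. Of 7 genes for redox partners and heme supply, 0 differed by 2-fold in either direction, and the median log2 ratio was −0.10. Por, the P450 reductase, stood at 434 CPM in the NCD section and 251 CPM in the HFD section (−0.79). Alas1, the first enzyme of heme synthesis, stood at 296 and 500 CPM (0.76), and Cyb5a, cytochrome b5, at 2246 and 2085 CPM (−0.11). In the epoxygenase pathway, 6 of 8 genes passed the minimum, and 1 of them (Cyp2j9) was at least 2-fold lower. Ephx2, the soluble epoxide hydrolase that acts on the products of the epoxygenases, stood at 919 and 656 CPM (−0.49). Ephx1, the microsomal epoxide hydrolase, stood at 253 and 392 CPM (0.63), and Cyp2j5 at 236 and 288 CPM (0.29). The median of the list was 0.18.

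Of 8 regulators known to act on Cyp2c genes, 1 was at least 2-fold lower, 0 were at least 2-fold higher, and the median was 0.11. The xenobiotic receptor CAR (Nr1i3) stood at 127 and 121 CPM (−0.06), its relative PXR (Nr1i2) at 29.0 and 38.7 CPM (0.42), and Hnf4a at 153 and 187 CPM (0.29). Onecut1, a transcription factor of hepatocytes, was the lower gene, with 125 and 94 UMIs (−1.72, interval −2.13 to −1.33). In growth hormone signalling, which sets the sex-dependent level of many liver P450s, 2 of the 7 genes above the minimum were at least 2-fold lower and 1 at least 2-fold higher, with a median of 0.29. The lower ones were the feedback inhibitors Socs2, at 21.4 and 3.29 CPM (−2.70), and Cish, at 17.4 and 7.72 CPM (−1.17). The higher one was the repressor Bcl6, at 2.76 and 7.93 CPM (1.53), while the receptor Ghr stood at 252 and 309 CPM (0.29) and Stat5b at 18.7 and 28.1 CPM (0.59). Among 6 bile acid genes beside Cyp2c70, 1 was at least 2-fold lower, and the median was −0.52. That gene was Cyp7b1, the oxysterol hydroxylase, at 190 and 36.2 CPM (−2.39). Cyp7a1, the rate-limiting enzyme of bile acid synthesis, stood at 46.4 and 34.1 CPM (−0.44), Cyp8b1 at 384 and 372 CPM (−0.04) and Baat at 224 CPM in both.

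Within a section, spots of the same bin were also divided at the median by their share of acute phase RNA (Saa1, Saa2, Saa3, Lcn2, Orm2 and Hp), with each bin counted once. This list stood at 2134 CPM in the NCD section and 6190 CPM in the HFD section. In the HFD section the summed members stood at 999 CPM in spots with more and 1127 CPM in spots with less acute phase RNA, a log2 ratio of −0.17 (−0.19 to −0.15), and were lower in 5 of 5 bins. Cyp2c37 (−0.34), Cyp2c29 (−0.25), Cyp2c50 (−0.22) and Cyp2c68 (−0.11) were lower there in 5 of 5 bins too. Cyp2c38 (−0.12, interval −0.20 to −0.05) and Cyp2c54 (−0.21, interval −0.49 to 0.07) were lower in 3 of 5 bins each. The share of all genes lower in 5 of 5 bins was not counted, so whether this is particular to these members was not tested. Cyp2c67 (0.00, interval −0.06 to 0.07) and Cyp2c70 (−0.02, interval −0.08 to 0.05) stood at nearly the same level in both kinds of spot. In the NCD section the summed members stood at 2994 and 3011 CPM (−0.01, interval −0.03 to 0.01). Median depth was 18389.5 and 18845 UMIs in the HFD spots and 6379.5 and 8039 UMIs in the NCD spots. A division by lipid droplet RNA (Plin2, Plin4, Plin5, Cidea and Cidec), a list at 447 CPM in the NCD section and 929 CPM in the HFD section, gave ratios for the summed members of 0.036 (0.017 to 0.055) in the NCD section and −0.084 (−0.11 to −0.063) in the HFD one. The sum was lower in 2 of 5 NCD and 3 of 5 HFD bins. In the HFD section Cyp2c38 and Cyp2c67 were higher (both 0.11). Cyp2c37 (−0.28), Cyp2c29 (−0.12), Cyp2c70 (−0.11), Cyp2c50 (−0.099) and Cyp2c68 (−0.065) were lower.

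**Figure D5:**
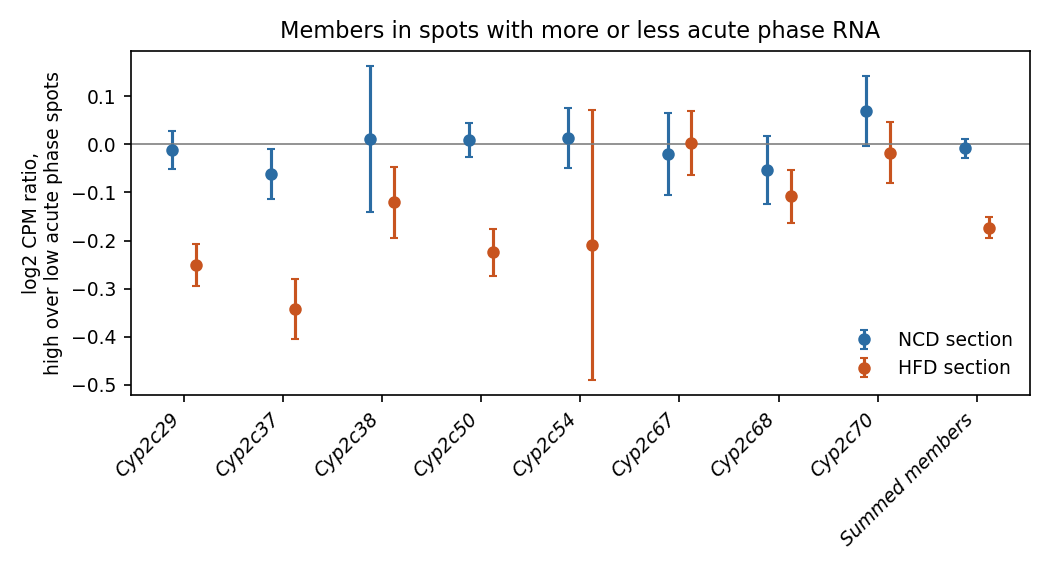
Log2 ratio of CPM in spots with more over spots with less acute phase RNA, each bin counted once, for 8 members and their sum in the NCD section (blue) and the HFD section (orange), with 95% intervals for counting error and a line at 0. In the HFD section Cyp2c37 lies lowest, at −0.34, and the NCD points lie between −0.06 and 0.07.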

How the data were processed

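Per the file headers and the labels, the authors made the deposited counts (UMIs per gene and spot) with Space Ranger 1.3.1 on mm10, with no normalization and separate tables for all spots and for spots over tissue, which differed in 0 UMIs over shared spots. The annotation version is not given in the sources used here. Of 32285 gene identifiers, 32158 were in GENCODE M21, which gave gene positions. In total 29037988 (NCD) and 72118803 (HFD) UMIs lay over tissue. Of the spot barcodes, which mark places on a slide, 3173 were over tissue in both sections.

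Levels are the UMIs of a gene summed over spots, per 1000000 UMIs in the same spots (CPM). Sums have exact Poisson intervals, shares exact Clopper-Pearson intervals and ratios exact conditional binomial intervals, at 95%. Differences in slope and ratios of divided spots have normal intervals on log counts. Counts of members past a fold of 2 used genes with at least 200 UMIs over the groups compared, and likeness genes with at least 1000 UMIs in each section (log2 of CPM plus 1). Limits for 0 counts used 3 counts per group of spots. Transcript ends came from the protein-coding transcript with the most exons. Named were the members, other Cyp2c genes, genes of the lists, and the 5 genes most like the summed members. The members and lists were chosen with earlier results of these data known. Spot positions and images were not used here. Intervals and ratios were checked on counts simulated with counting error only, which leaves out variation between animals, sections and spots. Alternatives changed the spots, total, weighting, depth and ranking. The tools were Biopython 1.88, matplotlib 3.10.9, pandas 2.3.3, scipy 1.17.1 and numpy 2.4.6 under Python 3.11.15.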

Additional observations from a re-analysis of the deposited data

Results flagged for a closer look

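The slope of Cyp2c70 along the lobule ran in opposite directions in the sections, with a log2 ratio of the pericentral over the periportal bin of 0.40 (NCD) and −0.85 (HFD). Some ratios of spots with more over spots with less lipid droplet RNA did so too, on a smaller scale. They were 0.099 (NCD) and −0.28 (HFD) for Cyp2c37, 0.041 and −0.099 for Cyp2c50, and 0.036 and −0.084 for the summed members. With 1 section per diet these differences between the sections were not tested. Spots off tissue, which are left out of comparisons between groups except where all spots of the capture area are named, held member RNA. It stood at 2804 CPM on the NCD slide and 806 CPM on the HFD slide.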

How the results depend on the processing

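The log2 ratio of HFD to NCD for the summed members was −1.31 as a mean of CPM per spot, −1.50 with spots drawn down to 1000 UMIs, −1.62 without mitochondrial and the 20 most abundant genes in the total, −1.95 against a total of 6 hepatocyte genes, −1.59 over all spots of the capture area and −1.63 with spots of at least 5000 UMIs, a choice made after seeing the data. The number of members past a fold of 2 was 6, and became 8 as a mean of CPM per spot, 7 against the hepatocyte genes and 5 at 1000 UMIs, where Cyp2c69 gave no value. The slope of the summed members along the lobule in the NCD and the HFD section was 2.09 and 1.64 without Cyp2e1 in the ranking, 1.72 and 1.36 with 3 bins in place of 5, 0.95 and 0.87 with spots drawn down to 1000 UMIs, 2.03 and 1.66 without mitochondrial and abundant genes, and 2.10 and 1.66 as a mean per spot. It was 2.12 in the NCD section with at least 50 zone gene UMIs and 1.66 in the HFD section with log-scaled zone genes. Ranking at 3000 UMIs per spot, also chosen after seeing the data, gave 2.05 and 1.65. At 1000 UMIs only 917 NCD and 367 HFD spots could be ranked, and the slopes of Cyp2c70 in the NCD section (−0.69) and of Cyp2c67 in the HFD section (−0.83, from 28 UMIs) turned direction. Of 79 recomputed ratios between sections for single members, 0 turned direction, but 26 lay outside the counting error interval of the main value. Of 165 slopes, 2 turned direction and 46 others lay outside that interval. Of 60 recomputed shares of the members' UMIs, 23 lay outside it. The intervals thus leave out the effect of processing choices. Cyp2c38 lay between 0.36 and 1.09 and Cyp2c54 between −6.04 and −5.27. No paired analysis was possible because each group had 1 section.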
